A study of Solanum lycopersicum with 4 samples.

Results

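Between mature green (MG) and 7 days after breaker (B+7), 58 named tomato genes outside the best known ripening families had a higher signal at the later stage in both AtJUB1-OX and WT fruits. They were chosen by 1 rule. A gene needed a symbol in the platform annotation, it was represented by its brightest probe set, and its signal at B+7 had to exceed that at MG by at least 1.5-fold in each genotype. Of 627 genes with a symbol, 18.8% met the cut-off in AtJUB1-OX, 21.5% in WT and 87, or 13.9%, in both. The families of ethylene synthesis, perception and response, auxin/indole-acetic acid proteins, WRKY factors, expansins, xyloglucan enzymes, lipoxygenases, pathogenesis-related proteins and small heat shock proteins, together with a set of ripening regulators and markers, were set aside, which took out 29 of the 87. The remaining 58 are 9.25% of the genes with a symbol.

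The fruits were pericarp of Solanum lycopersicum cv. Moneymaker on 4 GeneChip Tomato Genome Arrays, 1 each for AtJUB1-OX at B+7, AtJUB1-OX at MG, WT at B+7 and WT at MG. AtJUB1-OX carries 35S:AtJUB1-GFP, in which the constitutive 35S promoter drives the Arabidopsis NAC transcription factor JUNGBRUNNEN1 fused to green fluorescent protein, and the fruits came from 1 strongly overexpressing line. WT carries no transgene. Each condition has 1 array, so precision is limited by their number, no replicate check exists and no value carries a test. The values are log2 signals per probe set, a group of short oligonucleotides that reads 1 transcript, so they compare 1 gene between arrays and not different genes with each other. A signal is relative to the rest of the array, and fewer cells of a type cannot be told apart from less RNA per cell.

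The arrays were alike in overall signal, with medians of 9.69 to 9.74. Of 6 markers of ripe pericarp, all 6 were at least 1.5-fold higher at B+7 in both genotypes, and of 7 markers of green tissue 5 were lower in both and 0 higher. At MG, 5 of these ripe markers were dimmer in AtJUB1-OX than in WT and 1 was brighter: the log2 difference was -5.29 for E8, a dioxygenase of ripening fruit, -4.34 for the expansin EXP1, -0.83 and -0.61 for the ripening factors RIN and NOR, -0.47 for Psy1 and 2.33 for PG2, a polygalacturonase. Their part in the genotype differences below was not tested. Spiked bacterial control transcripts were brighter at B+7 than at MG by 0.19 in AtJUB1-OX and by 0.21 in WT, and 39 of the 58 genes met the cut-off once this shift was removed. As a measure of technical spread, probe sets of the same gene disagreed on the stage difference with a pooled SD of 0.74 in AtJUB1-OX and 0.61 in WT over 82 genes. With probe sets above the median signal alone it was 0.27 and 0.24, over the 35 genes that kept more than 1 probe set. In the genotype difference the SD was 0.26 at each stage.

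Ripening converts a green, firm fruit into a red, soft and aromatic one. Plastids lose chlorophyll and gain lycopene, which is made from isoprenoid units of the plastid methylerythritol phosphate (MEP) pathway. Hydrolases loosen the cell wall, organic acids and sugars are rebalanced, and volatile esters and fatty acid derivatives are formed, with ethylene and a small group of transcription factors at the head of the process. The 58 genes touch most of these branches, and are described by role.

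**Figure D1:**
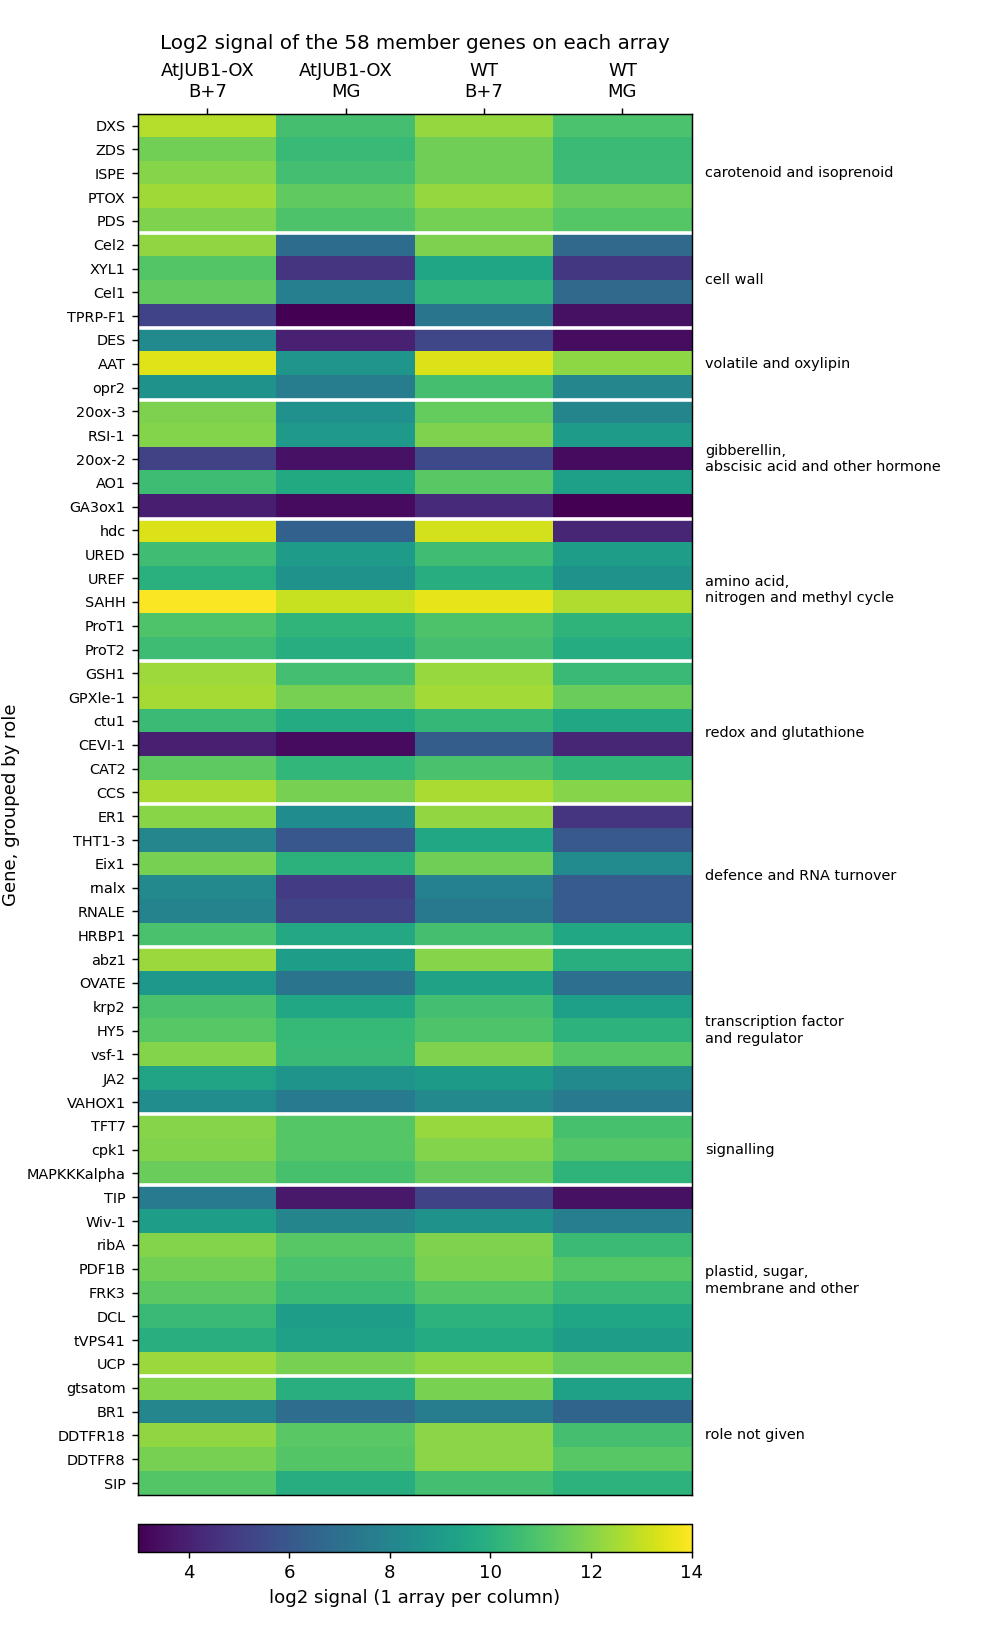
Log2 signal of each of the 58 genes (rows, grouped by role) on each of the 4 arrays (columns, 1 array each), with colour running from dark at 3 to yellow at 14. Colours are to be compared along a row; the columns at B+7 are brighter than those at MG within each genotype, as the choice of genes requires.

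The median difference of the 58 genes between B+7 and MG was 1.18 in AtJUB1-OX and 1.30 in WT, against 0.00 and 0.04 over all genes with a symbol, a contrast fixed by the way they were chosen. The differences ran between 0.61 and 7.00 in AtJUB1-OX and between 0.59 and 9.08 in WT, and 30 genes were at least 2-fold higher in both, as were 8.29% of all genes with a symbol. The choice also nearly fixes the order of the arrays: both B+7 arrays lay above both MG arrays in 57 of the 58 genes, and in 35.4% of all genes with a symbol. The exception was the peroxidase CEVI-1. Closest inside the cut-off were PDS with a smaller difference of 0.59, SIP with 0.60 and UCP with 0.61. Just outside were CTR1, a kinase of ethylene signalling, with 0.58 in AtJUB1-OX and 1.21 in WT, fsm1 with 0.58 and 1.38, and the cold-response factor CBF1 with 0.57 and 1.61. Each of these smaller differences is nearer to the cut-off than the spread between probe sets.

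**Figure D2:**
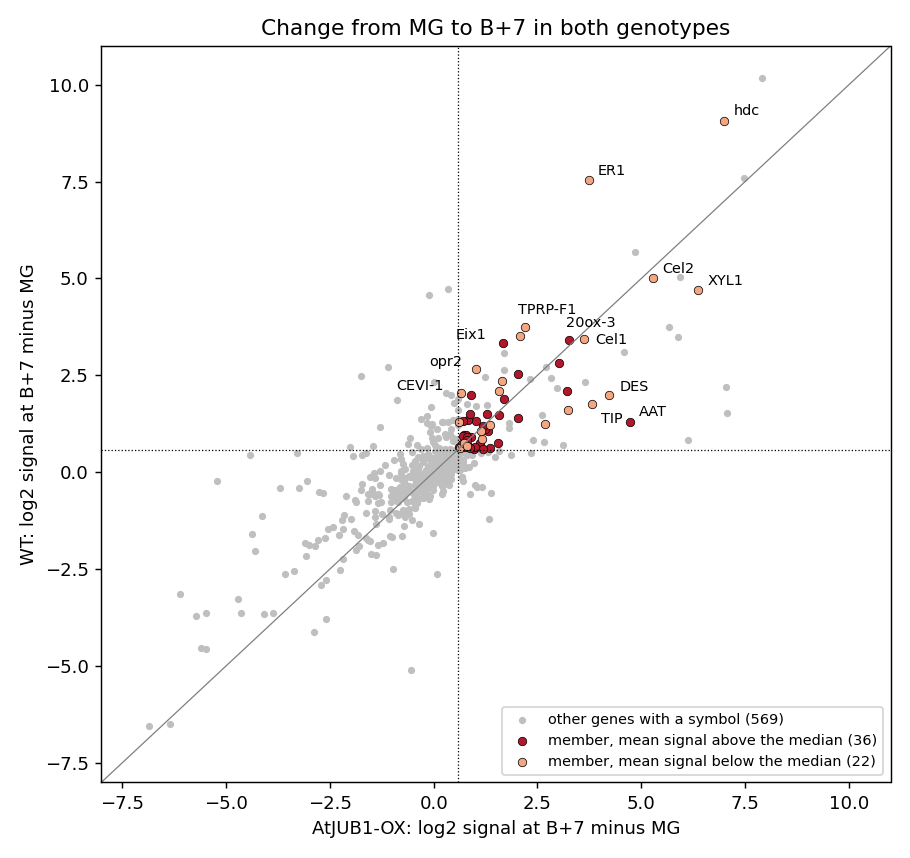
Log2 signal at B+7 minus MG in AtJUB1-OX (x axis) against WT (y axis) for 627 genes with a symbol, with the 58 chosen genes coloured by whether their mean signal lies above (36) or below (22) the median of all probe sets. Dotted lines mark 1.5-fold and the diagonal marks equal differences; hdc and ER1 lie above the diagonal, AAT and DES below it.

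Genes of carotenoid synthesis and of its precursors numbered 5. DXS, the enzyme that opens the MEP pathway, had log2 signals of 12.77 in AtJUB1-OX and 12.27 in WT at B+7, against 10.75 in AtJUB1-OX and 10.88 in WT at MG, a difference of 2.02 in AtJUB1-OX and 1.40 in WT. ISPE, a kinase further down that pathway, had 12.02 in AtJUB1-OX and 11.63 in WT at B+7, against 10.70 in AtJUB1-OX and 10.56 in WT at MG. Among the other MEP enzymes on the array, DXR differed between the stages by -0.36 in AtJUB1-OX and -0.41 in WT, and HDS by 0.49 and 0.36, so neither met the cut-off. Thus 2 of 4 measured steps of the pathway met it, in a list chosen after the symbols were seen, where 13.9% of all genes with a symbol did.

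The desaturases that turn phytoene towards lycopene followed the same pattern with smaller values. PDS, phytoene desaturase, had 11.87 in AtJUB1-OX and 11.70 in WT at B+7, against 10.91 in AtJUB1-OX and 11.11 in WT at MG. ZDS, zeta-carotene desaturase, had 11.67 in AtJUB1-OX and 11.61 in WT at B+7, against 10.43 in AtJUB1-OX and 10.50 in WT at MG. PTOX, the plastid terminal oxidase that takes electrons from these desaturations, had 12.42 in AtJUB1-OX and 12.27 in WT at B+7, against 11.29 in AtJUB1-OX and 11.51 in WT at MG. In all 5 genes the stage difference was larger in AtJUB1-OX than in WT, by a median of 0.36, from 0.13 in ZDS to 0.63 in DXS. The spread of a stage difference between bright probe sets was 0.27 in AtJUB1-OX and 0.24 in WT. The stage difference was larger in AtJUB1-OX for 28 of the 58 genes and for 281 of the 627 genes with a symbol, and this was not tested. All 5 genes stayed within 1.5-fold between genotypes at both stages. In the wider list of 9 carotenoid genes, 4 were higher in both genotypes (DXS, PDS, ZDS and Psy1, the phytoene synthase of fruit) and 2 were lower, against 13.9% higher and 13.6% lower of all genes with a symbol. The lower ones were cyclases that lead away from lycopene: LCY1 differed by -1.27 in AtJUB1-OX and -0.78 in WT, and CRTL-E-1 by -1.58 and -1.74. All CRTL-E-1 signals, between 4.20 and 5.94, lie below the 25th percentile of the arrays, log2 7.34, so a floor there leaves no stage difference. The other 3 genes of the list were neither higher nor lower in both genotypes. Among them NSY differed by -0.62 in AtJUB1-OX and 0.72 in WT.

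**Figure D3:**
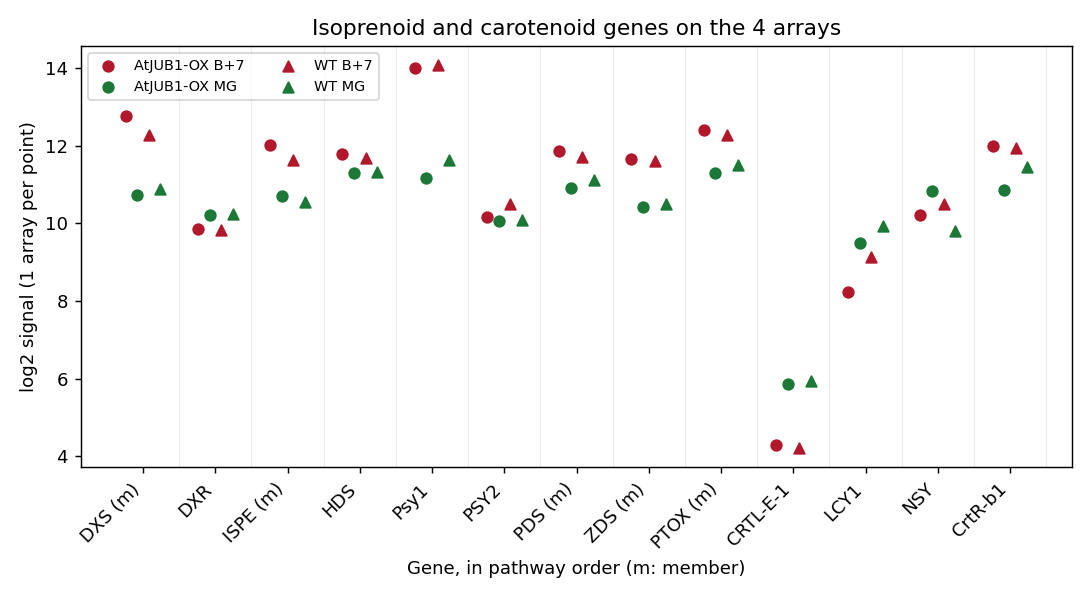
Log2 signal on each of the 4 arrays (1 point each) for genes of isoprenoid and carotenoid synthesis in pathway order, with the chosen genes marked m; circles are AtJUB1-OX, triangles WT, red B+7 and green MG. Levels are to be compared within a gene only; DXS, ISPE, PDS, ZDS and PTOX have both red points above both green ones, and the cyclases LCY1 and CRTL-E-1 have them below.

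Cell wall genes had some of the widest stage differences. Cel2, an endo-1,4-beta-glucanase that cuts glucan chains of the wall, had 12.16 in AtJUB1-OX and 11.82 in WT at B+7, against 6.89 in AtJUB1-OX and 6.81 in WT at MG, a difference of 5.27 in AtJUB1-OX and 5.01 in WT. Its relative Cel1 had 11.37 in AtJUB1-OX and 10.24 in WT at B+7, against 7.75 in AtJUB1-OX and 6.79 in WT at MG. Cel1 was thus brighter in AtJUB1-OX at both stages, by 1.13 at B+7 and by 0.95 at MG, whereas the genotypes differed by 0.35 and 0.08 in Cel2. XYL1, a beta-xylosidase, had 11.06 in AtJUB1-OX and 9.48 in WT at B+7, against 4.68 in AtJUB1-OX and 4.79 in WT at MG, and so was 1.58 brighter in AtJUB1-OX at B+7. Both XYL1 signals at MG lie below the 25th percentile of the arrays, so their closeness does not show equal starting levels. TPRP-F1, a proline-rich protein, took the opposite course: it had 5.19 in AtJUB1-OX and 7.26 in WT at B+7, against 3.00 in AtJUB1-OX and 3.51 in WT at MG. Of 46 wall genes on the array 10 (21.7%) were higher and 9 (19.6%) lower at B+7 in both genotypes, against 13.9% and 13.6% of all genes with a symbol. With values floored at the 25th percentile of the arrays, log2 7.34, TPRP-F1 no longer differed between genotypes at B+7 and Cel1 differed by 0.41 at MG.

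The 3 genes of volatile and oxylipin formation all passed 1.5-fold between genotypes at a stage. AAT, the alcohol acyltransferase that makes esters of fruit aroma, had 13.47 in AtJUB1-OX and 13.43 in WT at B+7, against 8.74 in AtJUB1-OX and 12.13 in WT at MG. The genotypes met at B+7, and at MG the difference of AtJUB1-OX from WT was -3.38, so that the stage difference was 4.72 in AtJUB1-OX and 1.30 in WT. DES, divinyl ether synthase, which acts on lipoxygenase products, had 8.23 in AtJUB1-OX and 5.35 in WT at B+7, against 4.00 in AtJUB1-OX and 3.35 in WT at MG. Here the genotypes were 2.88 apart at B+7 and 0.65 apart at MG. The DES signals of WT at B+7 and of both genotypes at MG lie below the 25th percentile, log2 7.34. With the floor at that level the B+7 difference is smaller, and DES no longer met the cut-off between stages. The 12-oxophytodienoate reductase gene opr2 had 8.66 in AtJUB1-OX and 10.76 in WT at B+7, against 7.64 in AtJUB1-OX and 8.11 in WT at MG. Other oxylipin enzymes went the other way with stage: the difference of B+7 from MG was -3.36 in AtJUB1-OX and -2.55 in WT for OPR1, -2.21 and -1.23 for OPR3, and -1.89 and -0.72 for the allene oxide cyclase AOC. In all, 2 of 7 oxylipin genes were higher and 3 lower in both genotypes, and of 8 flavour volatile genes 4 were higher, AAT and 3 lipoxygenases, and 1 was lower, against 13.9% higher and 13.6% lower of all genes with a symbol.

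Among hormone genes were 3 gibberellin oxidases, 1 of them bright. The GA 20-oxidase gene 20ox-3 had 11.84 in AtJUB1-OX and 11.40 in WT at B+7, against 8.57 in AtJUB1-OX and 8.00 in WT at MG, a difference of 3.27 in AtJUB1-OX and 3.41 in WT. The other members of this route, 20ox-2 and the 3-oxidase gene GA3ox1, were dim on every array. Their signals lay between 3.32 and 5.42 for 20ox-2 and between 3.03 and 4.33 for GA3ox1. In a list of 6 gibberellin genes, chosen after the symbols were seen, 3 (50%) met the cut-off in both genotypes and 3 did not. Of all genes with a symbol 13.9% met the cut-off in both. With the floor at the 25th percentile neither 20ox-2 nor GA3ox1 met it, and GA3ox1 was also lost after quantile normalization, after loess, after removal of the spike shift and at 2-fold. RSI-1, known as an auxin-induced transcript of lateral root initiation, had 11.96 in AtJUB1-OX and 11.87 in WT at B+7, against 8.94 in AtJUB1-OX and 9.05 in WT at MG, with genotype differences of 0.09 at B+7 and -0.11 at MG. AO1, an aldehyde oxidase of the family that completes abscisic acid synthesis, had 10.58 in AtJUB1-OX and 11.20 in WT at B+7, against 9.69 in AtJUB1-OX and 9.20 in WT at MG. It was the 1 gene above the median signal that passed 1.5-fold between genotypes at B+7, with a difference of -0.62.

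In amino acid and nitrogen metabolism the gene hdc, a histidine decarboxylase, had the widest stage difference among the 58 genes in each genotype. It had 13.41 in AtJUB1-OX and 13.26 in WT at B+7, against 6.40 in AtJUB1-OX and 4.19 in WT at MG, which is 7.00 in AtJUB1-OX and 9.08 in WT. The B+7 signals were 0.14 apart and the MG signals 2.22, and both MG values lie below the 25th percentile, where the floor leaves no genotype difference. SAHH, S-adenosylhomocysteine hydrolase of the methyl cycle that also feeds ethylene synthesis, had 13.95 in AtJUB1-OX and 13.59 in WT at B+7, against 13.06 in AtJUB1-OX and 12.68 in WT at MG, so AtJUB1-OX was brighter by 0.37 and 0.38. Both accessory proteins that assemble the nickel enzyme urease were higher at B+7: URED had 10.63 in AtJUB1-OX and 10.65 in WT at B+7, against 9.06 in AtJUB1-OX and 9.16 in WT at MG, and UREF was higher by 1.35 in AtJUB1-OX and 1.23 in WT. The proline transporters ProT1 and ProT2 were higher by 0.78 and 0.74 in AtJUB1-OX and by 0.80 and 0.96 in WT, while their relative ProT3 differed by -0.52 in AtJUB1-OX and -1.24 in WT. ProT1 and ProT2 are close neighbours in the RefSeq order of assembly SLM_r2.1, with 1 gene between them. The probe set of URED is of a type that may match several transcripts. Of 9 other genes for amino acid, GABA and polyamine metabolism 0 were higher and 4 (44.4%) lower in both genotypes, against 13.9% and 13.6% of all genes with a symbol.

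Redox genes had mostly small differences. GSH1, gamma-glutamylcysteine synthetase, the first enzyme of glutathione synthesis, had 12.39 in AtJUB1-OX and 12.29 in WT at B+7, against 10.70 in AtJUB1-OX and 10.40 in WT at MG. GSH2, the second enzyme, differed by -0.44 in AtJUB1-OX and -0.12 in WT, within 1.5-fold in both. GPXle-1, a glutathione peroxidase, was higher by 0.79 in AtJUB1-OX and 0.97 in WT, and ctu1, a glutathione S-transferase, by 0.69 and 0.74. CAT2, a catalase that removes hydrogen peroxide, was higher by 0.98 in AtJUB1-OX and 0.65 in WT, and CCS, the copper chaperone of superoxide dismutase, by 0.86 and 0.62. The peroxidase CEVI-1 had 3.96 in AtJUB1-OX and 6.24 in WT at B+7, against 3.30 in AtJUB1-OX and 4.20 in WT at MG, and its AtJUB1-OX array at B+7 lay below the WT array at MG. In a list of 18 redox genes, which does not hold GSH1, ctu1 or CCS, 3 (16.7%) were higher and 0 lower in both genotypes. The shares over all genes with a symbol were 13.9% and 13.6%.

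The defence and RNA turnover group divided by stage. ER1, an ethylene-responsive proteinase inhibitor, had 12.06 in AtJUB1-OX and 12.24 in WT at B+7, against 8.33 in AtJUB1-OX and 4.70 in WT at MG, so that AtJUB1-OX differed from WT by -0.17 at B+7 and by 3.63 at MG. The WT signal of ER1 at MG lies below the 25th percentile, so its MG difference is smaller with the floor. Eix1, a receptor-like protein that binds a fungal xylanase, had 11.75 in AtJUB1-OX and 11.63 in WT at B+7, against 10.08 in AtJUB1-OX and 8.29 in WT at MG. Both were nearer to their B+7 signal in AtJUB1-OX than in WT when still green, the opposite of AAT. The S-like ribonucleases rnalx and RNALE, which degrade RNA, were dimmer in AtJUB1-OX at MG, at signals that lie below the 25th percentile, so that the floor leaves no genotype difference there: rnalx had 8.17 in AtJUB1-OX and 7.83 in WT at B+7, against 4.93 in AtJUB1-OX and 6.22 in WT at MG. RNALE had 7.91 in AtJUB1-OX and 7.46 in WT at B+7, against 5.24 in AtJUB1-OX and 6.22 in WT at MG. The genes of this pair adjoin each other in the RefSeq order, with 0 genes between them, and whether their probe sets read each other's transcript was not tested. THT1-3, a tyramine hydroxycinnamoyl transferase that makes wall-bound amides, had 8.08 in AtJUB1-OX and 9.61 in WT at B+7, against 5.99 in AtJUB1-OX and 6.09 in WT at MG. HRBP1, which binds a bacterial harpin, had 10.84 in AtJUB1-OX and 10.75 in WT at B+7, against 9.66 in AtJUB1-OX and 9.55 in WT at MG. A separate list of 13 defence and protease genes had 1 (7.69%) higher and 6 (46.2%) lower in both genotypes, against 13.9% and 13.6% of all genes with a symbol.

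Transcription factors and regulators numbered 7. The bZIP factor abz1 had 12.36 in AtJUB1-OX and 12.01 in WT at B+7, against 9.15 in AtJUB1-OX and 9.91 in WT at MG, and vsf-1, another bZIP factor, had 11.97 in AtJUB1-OX and 11.87 in WT at B+7, against 10.41 in AtJUB1-OX and 11.11 in WT at MG. AtJUB1-OX thus lay above WT at B+7, by 0.36 for abz1 and 0.10 for vsf-1, and differed from it by -0.76 and -0.70 at MG. HY5, the bZIP factor of light signalling that promotes pigment formation, was higher at B+7 by 0.79 in AtJUB1-OX and 0.84 in WT. JA2, a NAC factor like the transgene product, had 9.41 in AtJUB1-OX and 9.01 in WT at B+7, against 8.68 in AtJUB1-OX and 8.25 in WT at MG, 0.40 and 0.43 apart. OVATE, a repressor of fruit elongation, was higher by 1.64 in AtJUB1-OX and 2.35 in WT, and the homeodomain factor VAHOX1 by 0.81 and 0.68. The gene krp2, for an inhibitor of cyclin-dependent kinases, had 10.86 in AtJUB1-OX and 10.71 in WT at B+7, against 9.57 in AtJUB1-OX and 9.21 in WT at MG. In a list of 37 transcription factors with a symbol, 8 (21.6%) were higher and 1 (2.7%) lower in both genotypes. The shares over all genes with a symbol were 13.9% and 13.6%, and 5 of the 8 are among the 58 genes.

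The 3 signalling genes, all above the median signal, had larger stage differences in WT. The protein kinase gene MAPKKKalpha was higher by 0.71 in AtJUB1-OX and 1.31 in WT, the 14-3-3 protein TFT7 by 0.86 and 1.51, and the calcium-dependent kinase cpk1 by 0.79 and 0.92. Their median genotype difference was -0.07 at B+7 and 0.33 at MG. Of 23 genes for kinases, phosphatases and calcium signalling 3 (13.0%) were higher and 1 (4.35%) lower in both genotypes, against the same shares.

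Plastid, sugar and membrane genes closed the set with small differences, except for TIP, a tonoplast aquaporin that lets water cross the vacuolar membrane. TIP had 7.54 in AtJUB1-OX and 5.24 in WT at B+7, against 3.73 in AtJUB1-OX and 3.49 in WT at MG, so it was 2.30 brighter in AtJUB1-OX at B+7. Among 12 transporters and ATPases 1 (8.33%) was higher, TIP itself, and 3 (25%) were lower in both genotypes. The shares over all genes with a symbol were 13.9% and 13.6%. With the floor the genotypes differed by 0.20 in TIP at B+7. Wiv-1, a cell wall invertase that splits sucrose outside the cell, was higher by 1.17 in AtJUB1-OX and 0.86 in WT, and FRK3, a fructokinase, by 0.74 and 0.65. Of 16 genes of sugar metabolism 3 (18.8%) were higher and 3 (18.8%) lower in both genotypes, against the same 13.9% and 13.6%. DCL, needed for plastid development, was higher by 1.36 and 0.63, PDF1B, a peptide deformylase of organelles, by 0.82 and 0.67, and ribA, an enzyme of riboflavin synthesis, by 0.83 and 1.36. The mitochondrial uncoupling protein UCP was higher by 0.61 and 0.65, and tVPS41, a vacuolar sorting protein, by 0.65 and 0.62. The genes gtsatom, DDTFR18, DDTFR8, BR1 and SIP are given no role here. The brighter probe set of gtsatom had 11.96 in AtJUB1-OX and 11.80 in WT at B+7, against 9.92 in AtJUB1-OX and 9.28 in WT at MG. This gene had 2 probe sets, which differed by 2.03 and 1.89 in AtJUB1-OX and by 2.53 and 2.33 in WT.

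The difference between genotypes within a stage was not itself a criterion of the rule. At B+7 the signal of 4 genes, or 6.9%, was at least 1.5-fold above WT in AtJUB1-OX, against 4.47% of all genes with a symbol, and 5 genes, or 8.62%, were that far below, against 12.4%. At MG, 8 genes (13.8%) were above WT, against 12.9%, and 6 genes (10.3%) below, against 9.09%. No test was run on these shares, and they are not wholly free of the rule, since the genotype differences at the 2 stages are tied to the stage differences of the genotypes. The median difference of the 58 genes was 0.13 at B+7 and 0.09 at MG. Of them 38 lay within 1.5-fold at both stages, as did 422 of the 627 genes with a symbol. Genes lower at B+7 in both genotypes, 70 in number, had 28 members dimmer in AtJUB1-OX than in WT at B+7, which is 40.0%, and 5 brighter, with no test against the 58.

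Signal level went with the size of these differences. Among the 36 genes above the median signal, 0 were at least 1.5-fold above WT in AtJUB1-OX at B+7 and 1 was that far below. These are 0% and 2.78%, against 1.93% and 7.71% of genes with a symbol above the median signal. At MG the counts were 4 (11.1%) above and 3 (8.33%) below, against 9.92% and 6.61%. Among the 22 dimmer genes the counts at the same cut-off were 4 and 4 at B+7, and 4 and 3 at MG. No share over dimmer genes with a symbol was set beside them. The typical size of the difference, the median without sign, was 0.15 at B+7 and 0.24 at MG in the brighter genes, and 0.46 at B+7 and 0.34 at MG in the dimmer ones. All 8 genes that were at least 2-fold apart at B+7, Cel1, XYL1, DES and TIP above WT and CEVI-1, opr2, TPRP-F1 and THT1-3 below, were among the dimmer ones. At MG, 14 of the 58 genes lay below the 25th percentile of signal in both genotypes.

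**Figure D4:**
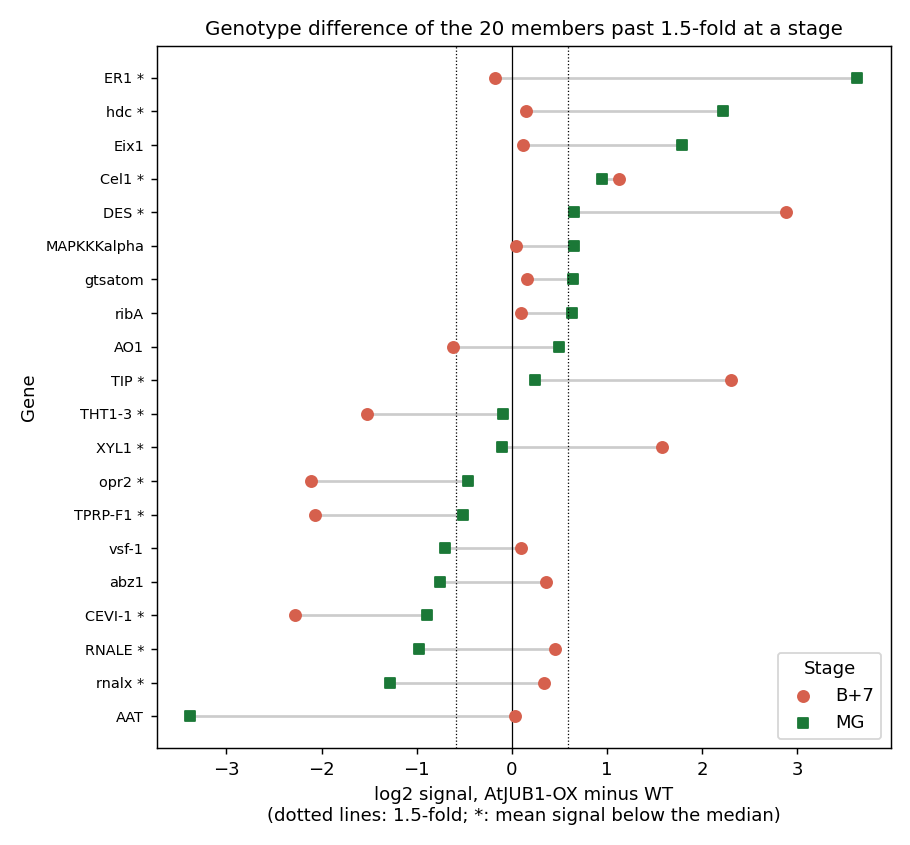
Log2 signal in AtJUB1-OX minus WT at B+7 (red circles) and at MG (green squares) for the 20 genes that passed 1.5-fold at a stage; each point is a difference of 2 arrays, and an asterisk marks a mean signal below the median. ER1, hdc and Eix1 lie far to the right at MG and near 0 at B+7, AAT far to the left at MG and near 0 at B+7, and DES, TIP and XYL1 to the right at B+7.

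Of the 20 genes that passed 1.5-fold between genotypes, 9 did so at B+7 and 14 at MG, and 3 at both, namely Cel1, DES and CEVI-1. Each of these 3 differed in the same direction at the 2 stages, but with the floor all 3 lost the difference at MG, and CEVI-1 that at B+7 too. The 11 genes that differed at MG alone were between 0.04 (AAT) and 0.45 (RNALE) apart at B+7, without regard to sign. For 5 of them, ER1, hdc, Eix1, AAT and rnalx, the MG difference was at least 2-fold, 3 upwards and 2 downwards. With the floor hdc and rnalx no longer differed at MG, and the difference of ER1 is smaller. The stage difference was larger in AtJUB1-OX for 28 of the 58 genes and larger in WT for 30, by at least 1.5-fold for 11 and 12. Over all 627 genes with a symbol, B+7 minus MG, with its sign, was larger in AtJUB1-OX for 281 and in WT for 346. By at least 1.5-fold these were 63 and 137. No test was run on these counts.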

How the data were processed

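Pericarp RNA of AtJUB1-OX and WT fruits was measured on 4 GeneChip Tomato Genome Arrays, 1 per condition, with conditions taken from the sample labels. The deposited values are log2 signals per probe set, which the authors had already corrected, normalized and summarized; the submitters' processing notes list both GCRMA and RMA, with no role, order or version stated in the sources read. GCRMA estimates background from probe sequence, so differences of dim probe sets depend on it. The file holds 10209 probe sets; 108 controls were left out and 10101 used.

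The platform annotation gives 1 gene for 909 probe sets, several for 0 and none for 9192. This made 803 genes, of which 176 carry a bare locus number and were not counted as named. RefSeq (assembly SLM_r2.1), used for names and gene order only, held 57 of the 58 genes. NP24-I was counted as a pathogenesis-related gene and XET2 as a xyloglucan enzyme, and left out. Promoter and protein sequences were not analysed here.

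Differences of log2 values were taken as deposited and counted at 1.5-fold, the study's cut-off. The genes and gene lists were chosen with earlier results of these data known, and the lists of MEP, gibberellin, glutathione, amino acid transport and oxylipin genes after the symbols had been seen. Named by rule were the 12 genes above the median signal with the largest smaller difference, those 2-fold apart between genotypes at a stage and those with several probe sets, with values on every array, and those nearest the cut-off, by their differences; others were named, by role, after their values were seen. The alternatives were median centring, quantile normalization, loess, removal of the spike shift, the mean of probe sets, a floor, bright probe sets alone and a 2-fold cut-off. The counting was tested on simulated data. Python 3.11.15 with numpy 2.4.6 and pandas 2.3.3, and R 4.3.3 with limma 3.58.1, were used.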

Additional observations from a re-analysis of the deposited data

Results flagged for a closer look

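LOC544158, a gene known only by a locus number, met the same cut-off with stage differences of 3.34 in AtJUB1-OX and 6.30 in WT. It had log2 signals of 9.79 in AtJUB1-OX and 11.62 in WT at B+7, against 6.45 in AtJUB1-OX and 5.32 in WT at MG. It drew attention because AtJUB1-OX lay below WT at B+7, with a difference of -1.83, and 1.13 above it at MG. Both MG signals lie below the 25th percentile of the arrays, log2 7.34. A floor at that level leaves no genotype difference at MG, and so no change of sign. The difference between the stages was not tested.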

How the results depend on the processing

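No gene's stage or genotype difference of 1.5-fold or more changed sign in the settings run on single genes. Which genotype had the larger median stage difference did change, but over different sets of genes. The medians were 1.45 in AtJUB1-OX and 1.41 in WT over the 39 genes left after the spike shift was removed. Over the 58 genes as deposited they were 1.18 and 1.30. At B+7 loess gave 5 genes higher and 4 lower, against 4 and 5. The rule found 56 genes after median centring, 55 after quantile normalization, 56 after loess (CTR1 gained), 59 with the mean of all probe sets, 49 with a floor at the 25th percentile and 39 after the spike shift was removed, so 19 genes rest on that shift, among them PDS, PTOX, CAT2, vsf-1 and JA2. Removing it left 5.71% of all probe sets and 10.2% of genes with a symbol higher in both genotypes, against 9.20% and 13.9%. A 2-fold cut-off left 30 genes with median differences of 2.06 in AtJUB1-OX and 2.05 in WT, 4 higher and 3 lower at B+7 and 3 higher and 2 lower at MG, 3.83% of probe sets and 8.29% of genes with a symbol. Above the median signal 36 genes remained, with 0 higher and 1 lower at B+7, 4 higher and 3 lower at MG, and 7.21% of probe sets. With the floor 2 were higher and 3 lower at B+7, 5 higher and 3 lower at MG, and 6.72% of probe sets were called. In that setting hdc, rnalx, RNALE, DES and CEVI-1 no longer differed at MG and Cel1 was 0.41 apart, and at B+7 TPRP-F1 and CEVI-1 no longer differed and TIP was 0.20 apart. The count of probe sets beyond a gene's brightest that were higher in both genotypes was 2 under loess, against 1 as deposited, that of gtsatom. CTR1, the gene gained under loess, has only 1 probe set, so the larger count does not show another such probe set. Counting locus numbers as names, chosen after seeing the data, gave 72 genes with 14 higher at MG, and 68 with 11 higher once 4 that a synonym puts in a left-out family were removed; counting NP24-I and XET2 gave 60. The causes were not tested. Near the cut-off, 20ox-3 at MG (0.58) reached 0.62 after centring and AO1 at B+7 (-0.62) reached -0.58 after loess. No paired analysis was possible because each condition has 1 array and the labels carry no replicate numbers, and for the same reason no replicate could be left out.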

Other observations

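In total 14 genes that carry a locus number in place of a symbol were at least 1.5-fold higher at B+7 in both genotypes, and by synonym 4 of them belong to the families set aside. LOC543878, a pathogenesis-related gene by synonym, had 9.33 in AtJUB1-OX and 5.40 in WT at B+7, against 6.37 in AtJUB1-OX and 3.10 in WT at MG, so it was brighter in AtJUB1-OX by 3.93 and 3.27. Its MG signals in both genotypes and its WT signal at B+7 lie below the 25th percentile, log2 7.34. A floor at that level leaves no genotype difference at MG and a smaller one at B+7. LOC543607 had 8.77 in AtJUB1-OX and 9.12 in WT at B+7, against 7.99 in AtJUB1-OX and 5.98 in WT at MG, which placed the genotypes 2.01 apart at MG. That WT signal also lies below the 25th percentile, so the MG difference of LOC543607 is smaller with the floor. LOC543916, a xyloglucan enzyme gene by synonym, was likewise 1.06 brighter in AtJUB1-OX at MG and within 0.05 of WT at B+7.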
